A study of Homo sapiens with 6 samples.

Results

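The genes described here are the E2F transcription factors E2F1 to E2F8 and the pocket proteins RB1 and RBL1, 10 genes chosen by name out of the 60676 listed in the count table, of which 8 are E2F genes and 2 are pocket protein genes. They were measured by RNA-seq in TC71, a Ewing sarcoma cell line. The control cells, called shNTC+Dox, carried a doxycycline (Dox)-inducible lentiviral vector with GFP and a non-targeting shRNA, and the knockdown cells, called shEHD1+Dox, carried the same kind of vector with an shRNA against EHD1, a regulator of endocytic recycling. Both were stable polyclonal lines selected with puromycin, and both received Dox at 0.5 µg/ml for 3 days before RNA was taken, so the vector, the selection and the drug were shared by the groups. There were 3 libraries per group, and the comparison asks how transcript levels differed once EHD1 was depleted. The sources used here do not say which EHD1 shRNA, or mix of them, the sequenced cells carried. They also do not say that either group held more than 1 line, so effects of a line and of its shRNA cannot be told apart. Nothing in the labels says that the replicates came from separate experiments, so the p-values below measure the spread between these libraries, which may be technical.

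E2F factors bind DNA at the promoters of genes needed for DNA synthesis. E2F1, E2F2 and E2F3 are the activators, which switch these genes on as a cell passes from G1 into S phase. E2F4 and E2F5 mostly act as repressors together with a pocket protein, E2F6 represses without pocket proteins as part of a Polycomb-type complex, and E2F7 and E2F8 are atypical members that bind DNA without a DP partner and shut the program down again late in S phase. The pocket proteins RB1, RBL1 (p107) and RBL2 (p130) hold E2F factors in check until cyclin-dependent kinases phosphorylate them. E2F1, E2F2, E2F7, E2F8 and RBL1 are themselves known target genes of E2F, whereas RB1 protein binds mostly the activators and RBL2 is the pocket protein known for non-dividing cells. TC71 cells are dividing cancer cells, in which this program is running.

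In shEHD1+Dox the activators E2F1 and E2F2 were at less than 50% of their control level, the atypical factor E2F7 and the pocket protein RBL1 were at 57.0% and 64.9%, and E2F6 was at 81.0%. RB1 rose to 134% and E2F5 to 119%, while E2F3, E2F4 and E2F8 did not pass the test. All 10 genes passed the filter on low counts, with between 227 and 3655 counts in each library, which gives a counting error of 6.64% at the lowest count and 1.65% at the highest. Of the 10, 5 were lower and 2 higher at an adjusted p under 0.05 (edgeR quasi-likelihood test, Benjamini-Hochberg over all 16785 genes tested), where 8.75% of all genes tested were lower and 8.59% were higher at that threshold. The 10 genes were chosen with earlier results of these data known, so these shares give a scale and are not a test. With a fold change of at least 2 required as well, E2F1 and E2F2 passed, against 1.74% of all genes that were lower by that measure. The log2 ratio of shEHD1+Dox to shNTC+Dox fitted by edgeR is given below as log2FC, with its standard error (SE). The median log2FC of the 10 genes was -0.38 and that of all genes tested was 0.001.

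Total counts ran from 22711235 to 28203023 in shNTC+Dox and from 24150135 to 30582187 in shEHD1+Dox, and no pair of libraries agreed within sampling noise. EHD1 itself lay between 26.4 and 28.0 CPM (counts scaled to a common library size after TMM normalization) in the control libraries and between 7.15 and 9.37 CPM in the knockdown libraries, and its log2FC was -1.76 (SE 0.12, edgeR adjusted p = 1.35e-04). Of 8 Ewing sarcoma markers, 7 were detected well enough to be tested, among them CD99 and NR0B1, and CCK was not, with at most 12 counts. PTPRC, EPCAM, PECAM1, MYOD1 and ALB, markers of leukocytes, epithelium, endothelium, muscle and liver, had at most 11 counts in any library, and COL1A1, a fibroblast marker, was present in both groups (18.4 ± 4.23 CPM in the controls against 20.6 ± 1.66 CPM after knockdown, SD, n = 3 each). Of the 10 genes, 9 had their highest value of the control group in shNTC+Dox replicate 3, the library with the lowest total count, and the same 9 had their highest value of the knockdown group in shEHD1+Dox replicate 2, the library with the next lowest total, so values without these libraries are given below where they change a call or the size of a difference. The part that depth plays in this was not tested. In bulk RNA, fewer cells in a cell cycle phase and less RNA per cell cannot be told apart.

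The stretch before the first transcribed base of 5 of the genes holds a word that E2F factors are known to bind, and all 5 sequences are shown. Of these genes, E2F1, E2F2, E2F7 and RBL1 passed as lower and E2F3 did not pass. Whether the words bear on these changes was not tested. The words searched were TTCCCGC or TTGGCGC or TTCGCGC or TTGCCGC, on both strands, where words may overlap, in the 250 bases before the start in RefSeq's GRCh38.p14 annotation. At least 1 of these words stood in 10.9% of all 35116 promoter windows of the same length. Promoter entries were found for 8 of the 10 genes, and E2F5 and E2F8 had none. The windows are written from 5′ to 3′ on the strand of the gene, with every match in capitals.
E2F1, chr20:33686386-33686635, minus strand: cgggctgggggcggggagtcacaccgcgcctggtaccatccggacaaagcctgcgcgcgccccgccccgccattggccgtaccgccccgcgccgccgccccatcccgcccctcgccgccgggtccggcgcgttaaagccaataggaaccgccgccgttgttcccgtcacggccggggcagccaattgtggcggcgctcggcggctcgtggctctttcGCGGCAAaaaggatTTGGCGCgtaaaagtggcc
E2F2, chr1:23531234-23531483, minus strand: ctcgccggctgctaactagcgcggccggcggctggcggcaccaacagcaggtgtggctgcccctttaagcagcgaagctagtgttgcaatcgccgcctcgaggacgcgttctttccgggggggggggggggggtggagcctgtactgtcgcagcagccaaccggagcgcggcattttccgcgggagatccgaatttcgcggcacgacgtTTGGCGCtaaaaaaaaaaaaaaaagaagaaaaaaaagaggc
E2F7, chr12:77065570-77065819, minus strand: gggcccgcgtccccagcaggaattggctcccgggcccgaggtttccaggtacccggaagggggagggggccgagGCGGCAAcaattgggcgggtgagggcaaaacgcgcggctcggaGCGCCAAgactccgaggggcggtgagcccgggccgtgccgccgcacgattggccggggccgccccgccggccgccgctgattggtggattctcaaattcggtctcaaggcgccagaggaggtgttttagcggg
RBL1, chr20:37095998-37096247, minus strand: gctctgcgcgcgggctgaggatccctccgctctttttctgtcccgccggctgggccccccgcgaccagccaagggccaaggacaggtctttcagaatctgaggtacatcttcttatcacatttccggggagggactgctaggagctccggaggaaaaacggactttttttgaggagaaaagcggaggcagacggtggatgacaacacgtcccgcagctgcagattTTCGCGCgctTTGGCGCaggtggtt
E2F3, chr6:20401629-20401878, plus strand: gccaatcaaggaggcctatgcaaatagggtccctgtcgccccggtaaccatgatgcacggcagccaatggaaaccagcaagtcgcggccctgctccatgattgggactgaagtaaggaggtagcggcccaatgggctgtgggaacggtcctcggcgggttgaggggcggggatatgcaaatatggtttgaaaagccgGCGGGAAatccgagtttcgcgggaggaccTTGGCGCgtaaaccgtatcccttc
In E2F1 the words begin 33 and 19 bases before the start, in RBL1 25 and 15 bases before it, and in E2F2 a single word begins 41 bases before it. Those of E2F7 lie farther upstream, at 176 and 133 bases. E2F3 has words at 53 and 24 bases before the upstream of its 2 listed starts and none before the downstream start, which lies 1735 bases farther along, and the count table does not separate transcripts from these starts. E2F4 and E2F6 have none of the words, although E2F6 passed as lower. The single RB1 entry lies 172706 bases downstream of the start of RB1 in GENCODE release 44, so it says nothing about the main promoter. A match is a description of the letters and not evidence of binding.

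**Figure D1:**
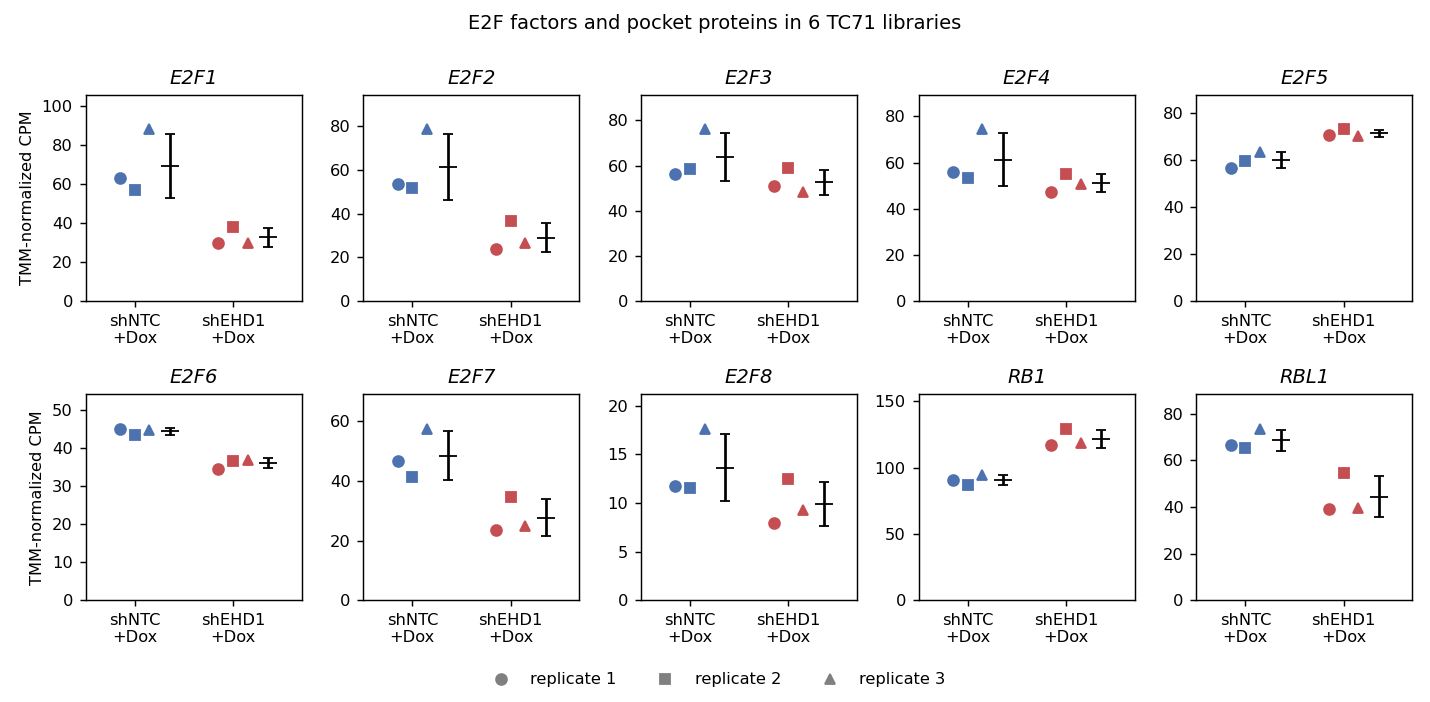
TMM-normalized CPM (linear y axis from 0) of each of the 10 genes in the 3 shNTC+Dox libraries (blue) and the 3 shEHD1+Dox libraries (red), with symbols for the replicate numbers and black bars for the mean ± SD. The groups stand apart for E2F1, E2F2, E2F5, E2F6, E2F7, RB1 and RBL1 and overlap for E2F3, E2F4 and E2F8.

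E2F1 (ENSG00000101412, chromosome 20, 33675477 to 33686385, hg38), the activator that gave the family its name, had 63.0, 57.0 and 87.8 CPM in shNTC+Dox replicates 1, 2 and 3 and 29.7, 38.2 and 29.8 CPM in shEHD1+Dox replicates 1, 2 and 3. Every knockdown library lay below every control library, with replicate 3 the highest of the controls and replicate 2 the highest of the knockdown libraries. Its log2FC was -1.09 (SE 0.17, 95% interval -1.49 to -0.69, edgeR adjusted p = 0.00582). E2F1 ranked 442 among the 16785 genes ordered from the largest fall and 746 by p-value. Without shNTC+Dox replicate 3 the log2FC was -0.89 (edgeR adjusted p = 0.00107), which no longer reached a 2-fold fall, and without shEHD1+Dox replicate 2 it was -1.22.

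E2F2 (ENSG00000007968, chromosome 1, 23506438 to 23531233), a second activator with a similar role, had 53.7, 51.7 and 78.5 CPM in the control libraries and 24.0, 36.5 and 26.4 CPM in the knockdown libraries. The groups did not overlap, and the same 2 libraries were the highest of their groups as for E2F1. Its log2FC was -1.08 (SE 0.21, 95% interval -1.58 to -0.59, edgeR adjusted p = 0.0151). Without shNTC+Dox replicate 3 the log2FC was -0.87, short of a 2-fold fall, and without shEHD1+Dox replicate 2 it was -1.28. Without shEHD1+Dox replicate 3 the adjusted p rose to 0.0589 at a log2FC of -1.02, and with any 1 library left out it ran from 0.0131 to 0.0589.

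E2F3 (ENSG00000112242, chromosome 6, 20401879 to 20493714), the third activator, whose transcripts from separate starts are known as E2F3a and E2F3b, had 56.4, 58.7 and 76.0 CPM in the control libraries. In the knockdown libraries it had 50.7, 58.9 and 48.3 CPM. The groups overlapped, because shEHD1+Dox replicate 2 lay above control replicates 1 and 2. The fit gave a log2FC of -0.27 (SE 0.13, edgeR adjusted p = 0.169), with a 95% interval from -0.56 to 0.01 that does not include a fall of the size fitted for E2F1 or E2F2. It was -0.13 without shNTC+Dox replicate 3 and -0.36 without shEHD1+Dox replicate 2. Whether the change of E2F3 differs from theirs was not tested.

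E2F4 (ENSG00000205250, chromosome 16, 67192155 to 67198918), the repressor that is known as the most abundant E2F in many cells, had 56.0, 53.2 and 74.3 CPM in the control libraries and 47.1, 55.1 and 50.9 CPM in the knockdown libraries. The groups overlapped, since shEHD1+Dox replicate 2 was above control replicate 2. Its log2FC was -0.26 (SE 0.13, 95% interval -0.55 to 0.03, edgeR adjusted p = 0.197). It was -0.10 without shNTC+Dox replicate 3 and -0.32 without shEHD1+Dox replicate 2.

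E2F5 (ENSG00000133740, chromosome 8, 85177154 to 85217158), the repressor known as a partner of RBL2, had 56.7, 59.6 and 63.7 CPM in the control libraries and 70.9, 73.1 and 70.3 CPM in the knockdown libraries. It was the E2F gene that rose, and all knockdown libraries lay above all controls. Its log2FC was 0.25 (SE 0.07, 95% interval 0.09 to 0.41, edgeR adjusted p = 0.0398), close to the threshold. With 1 library left out, E2F5 passed in 1 of 6 fits, that without shNTC+Dox replicate 3, and the adjusted p ran from 0.00808 to 0.140. The exons of E2F5 share 1130 bases with genes on the opposite strand, among them RBIS, and the library kit does not keep the strand. RBIS had a log2FC of -0.05 (edgeR adjusted p = 0.679).

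E2F6 (ENSG00000169016, chromosome 2, 11444375 to 11466177), which represses without a pocket protein, had 45.1, 43.3 and 44.8 CPM in the control libraries and 34.5, 36.7 and 36.7 CPM in the knockdown libraries. It had the narrowest spread of the 8 E2F genes in the controls relative to its level (SD 0.97 CPM), and it was the gene whose highest values did not fall in shNTC+Dox replicate 3 and shEHD1+Dox replicate 2. The fitted log2FC was -0.30 (SE 0.07, 95% interval -0.46 to -0.15, edgeR adjusted p = 0.0196). With 1 library left out, E2F6 passed in 3 of 6 fits and did not pass without shNTC+Dox replicate 1, shEHD1+Dox replicate 1 or shEHD1+Dox replicate 3. The adjusted p then ran from 0.0132 to 0.0953 and the log2FC from -0.32 to -0.27.

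E2F7 (ENSG00000165891, chromosome 12, 77021248 to 77065569), an atypical repressor of the activators, had 46.9, 41.3 and 57.6 CPM in the control libraries and 23.4, 34.8 and 24.8 CPM in the knockdown libraries. The groups did not overlap, and shEHD1+Dox replicate 2 was again the knockdown library nearest to the controls. The fit gave E2F7 a log2FC of -0.81 (SE 0.17, 95% interval -1.21 to -0.41, edgeR adjusted p = 0.0181). The call was lost without shEHD1+Dox replicate 1 (edgeR adjusted p = 0.0649) or replicate 3 (edgeR adjusted p = 0.0711), and the lowest adjusted p with a library left out was 0.0107. Without shEHD1+Dox replicate 2 the log2FC was -1.01, and without shNTC+Dox replicate 3 it was -0.67.

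E2F8 (ENSG00000129173, chromosome 11, 19224063 to 19241620), the other atypical repressor and the least expressed member, had 11.7, 11.6 and 17.6 CPM in the control libraries and 7.97, 12.4 and 9.31 CPM in the knockdown libraries. The groups overlapped, with shEHD1+Dox replicate 2 above control replicates 1 and 2. Its log2FC was -0.46 (SE 0.21, edgeR adjusted p = 0.176), and its 95% interval from -0.95 to 0.03 includes falls as large as those fitted for E2F7 and no change. It was -0.24 without shNTC+Dox replicate 3 and -0.65 without shEHD1+Dox replicate 2.

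RB1 (ENSG00000139687, chromosome 13, 48303744 to 48599436), the retinoblastoma protein, had 90.3, 87.0 and 94.5 CPM in the control libraries and 117, 129 and 118 CPM in the knockdown libraries. All knockdown libraries were higher than all controls. RB1 had a log2FC of 0.42 (SE 0.07, 95% interval 0.26 to 0.58, edgeR adjusted p = 0.00515), and the call held whichever library was left out, with a log2FC from 0.37 to 0.45. No exon of RB1 shares bases with a gene on the opposite strand.

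RBL1 (ENSG00000080839, chromosome 20, 36996349 to 37095997), the pocket protein p107, had 66.5, 65.5 and 73.6 CPM in the control libraries and 39.3, 54.6 and 39.5 CPM in the knockdown libraries. It went the other way from RB1, and its groups did not overlap, although shEHD1+Dox replicate 2 stood well above the other two knockdown libraries. The fit gave RBL1 a log2FC of -0.62 (SE 0.13, 95% interval -0.92 to -0.33, edgeR adjusted p = 0.0132). As for E2F7, the call was lost without shEHD1+Dox replicate 1 (edgeR adjusted p = 0.0564) or replicate 3 (edgeR adjusted p = 0.0576), and the lowest adjusted p with a library left out was 0.00375. The log2FC of RBL1 was -0.80 without shEHD1+Dox replicate 2 and -0.57 without shNTC+Dox replicate 3. The exons of RBL1 share 213 bases with a gene on the opposite strand.

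Of the 10 genes, 7 had groups that did not overlap, where 39.3% of all genes tested had such groups in either direction. For each of these 7, an exact two-sided permutation test of the log2 CPM gave p = 0.1, which is the smallest p that 3 libraries against 3 allow. Without shNTC+Dox replicate 3, 5 of the 10 genes were lower and 2 higher by edgeR, and without shEHD1+Dox replicate 2, 5 were lower and 1 higher. Fewer passed without shEHD1+Dox replicate 1 (2 lower, 1 higher) or shEHD1+Dox replicate 3 (1 lower, 1 higher). Over all genes tested the calls fell as well in these fits, from 1469 lower and 1441 higher with all libraries to 722 lower and 619 higher without shEHD1+Dox replicate 1 and to 681 lower and 641 higher without shEHD1+Dox replicate 3.

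**Figure D2:**
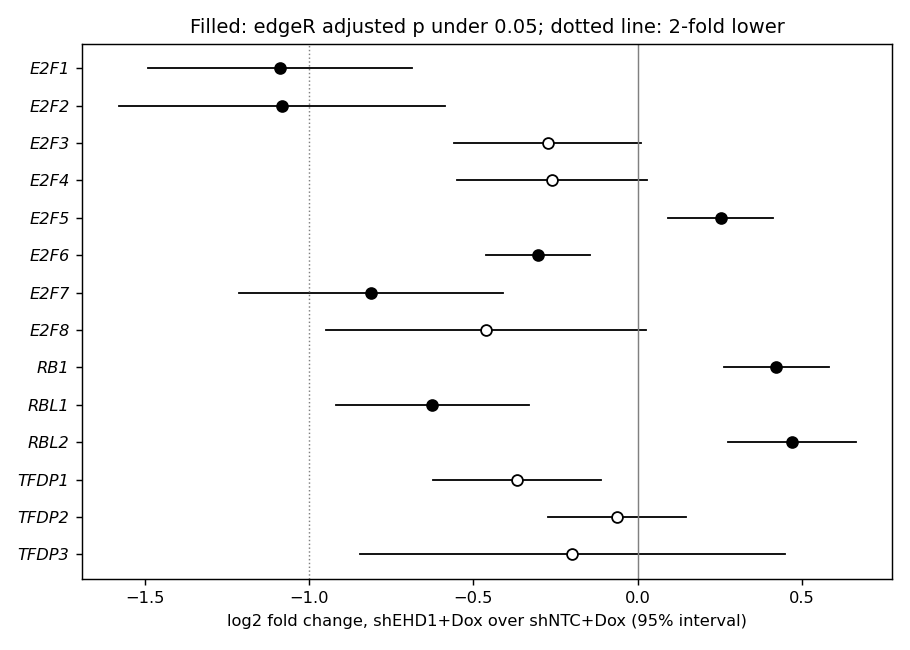
Log2 fold change (x axis, shEHD1+Dox over shNTC+Dox, edgeR) with its 95% interval for the E2F genes, the pocket protein genes and the DP partner genes, with filled points at an adjusted p under 0.05 and a dotted line at a 2-fold fall. E2F1 (-1.09) and E2F2 (-1.08) lie past the dotted line, and E2F5 (0.25), RB1 (0.42) and RBL2 (0.47) lie above 0.

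RBL2 (ENSG00000103479), the pocket protein not among the 10 genes, completes the family. It had 92.0, 88.1 and 74.8 CPM in the control libraries and 114, 122 and 117 CPM in the knockdown libraries, and unlike RBL1 it was lowest in shNTC+Dox replicate 3. Its log2FC was 0.47 (SE 0.09, edgeR adjusted p = 0.00742), and the call held whichever library was left out. Its exons share 1330 bases with genes on the opposite strand, among them AKTIP, which rose by 0.79 on the log2 scale (edgeR adjusted p = 0.00684), so some of the reads of either gene could come from the other.

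Levels of different genes were compared only as CPM per kilobase of merged exons in GENCODE release 44. On this scale E2F1 was the most abundant E2F transcript in shNTC+Dox, at 25.7 ± 6.08 CPM per kilobase, followed by E2F4 at 17.0 ± 3.19, E2F3 at 12.3 ± 2.06, E2F2 at 11.2 ± 2.74, E2F6 at 10.9 ± 0.24, E2F5 at 10.0 ± 0.58, E2F7 at 7.72 ± 1.32 and E2F8 at 3.30 ± 0.84 (SD, n = 3 each). From E2F3 down to E2F6, neighbours in this order differed by less than the larger of their SDs. In shEHD1+Dox the order was led by E2F4 at 14.2 ± 1.11, E2F1 at 12.1 ± 1.81, E2F5 at 11.9 ± 0.24 and E2F3 at 10.1 ± 1.06, with E2F2 down to the sixth place at 5.30 ± 1.22 CPM per kilobase. E2F1 and E2F5 there differed by less than the spread of E2F1. The order depends on the length used. Per kilobase of the longest transcript, the means of E2F1 and E2F4 in shNTC+Dox were 25.7 and 23.4, a gap smaller than the spread of E2F1, and in shEHD1+Dox E2F4 (19.5) and E2F5 (14.2) both lay above E2F1 (12.1).

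The ratio of E2F1 to E2F4, both in CPM per kilobase, does not depend on how the libraries were scaled. It was 1.5, 1.43 and 1.58 in shNTC+Dox replicates 1, 2 and 3 and 0.84, 0.93 and 0.78 in shEHD1+Dox replicates 1, 2 and 3. On this measure, too, the groups stood apart, with shNTC+Dox replicate 3 the highest control and shEHD1+Dox replicate 2 the highest knockdown library. The activators E2F1 to E2F3 together made up 49.9% ± 2.29 of the summed CPM per kilobase of the 8 E2F genes in shNTC+Dox and 39.7% ± 1.87 in shEHD1+Dox. The share of the repressors E2F4 and E2F5 was 27.6% ± 0.94 and 37.8% ± 1.91, that of E2F6 was 11.3% ± 1.66 and 12.8% ± 1.02, and that of E2F7 and E2F8 was 11.2% ± 0.35 and 9.73% ± 1.18. The summed level itself was 98.2 ± 16.7 CPM per kilobase in shNTC+Dox and 69.3 ± 7.0 in shEHD1+Dox.

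RB1 was the most abundant pocket protein transcript in both groups. In shNTC+Dox it stood at 14.1 ± 0.58 CPM per kilobase, RBL1 at 11.5 ± 0.74 and RBL2 at 10.5 ± 1.11, and the last pair differed by less than their spread. In shEHD1+Dox, RB1 stood at 18.9 ± 1.08, RBL2 at 14.5 ± 0.45 and RBL1 at 7.47 ± 1.47 CPM per kilobase. RBL1 made up 30.6%, 31.1% and 34.1% of the summed level of the 3 pocket protein genes in the control libraries and 17.0%, 20.7% and 16.8% in the knockdown libraries, with no overlap. The summed level was 36.1 ± 0.61 and 40.8 ± 2.97 CPM per kilobase. Per kilobase of the longest transcript, RBL2 lay above RBL1 in both groups, at means of 13.4 and 12.1 in the controls and 18.6 and 7.82 after knockdown. The ratio of RB1 to E2F1 was 0.60, 0.64 and 0.45 in the control libraries and 1.64, 1.42 and 1.66 in the knockdown libraries. These shares and ratios are descriptions, with no test.

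**Figure D3:**
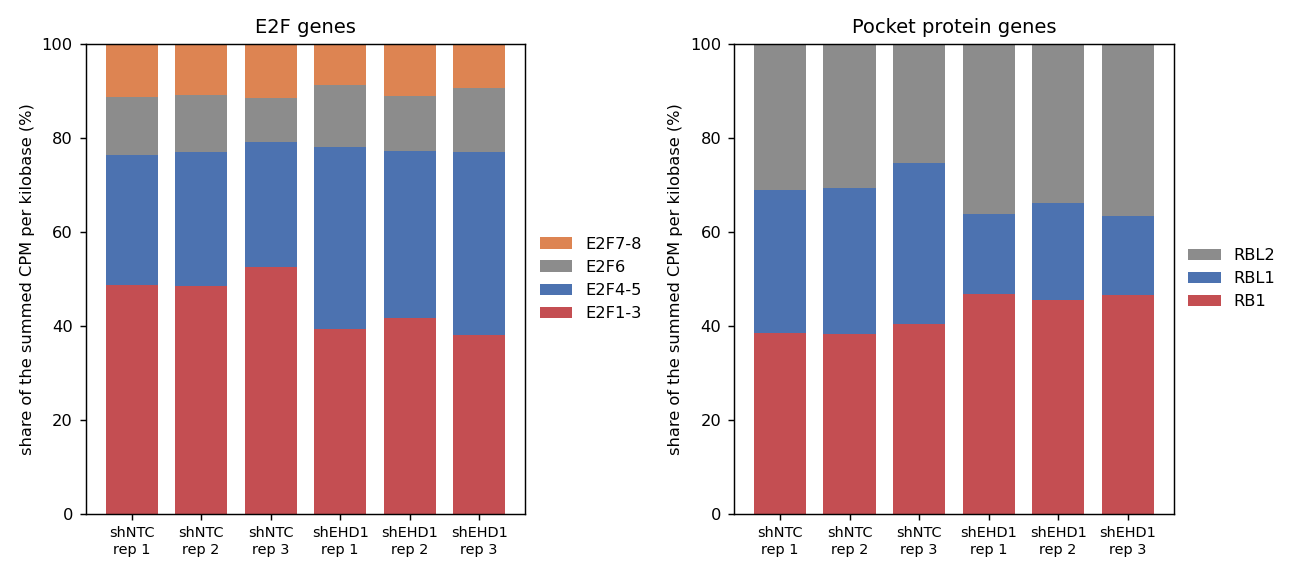
Share of the summed CPM per kilobase (y axis, percent, 1 bar per library) taken by 4 groups of E2F genes (left) and by the 3 pocket protein genes (right). The share of E2F1 to E2F3 is 48.4% to 52.5% in the shNTC+Dox libraries and 38.0% to 41.7% in the shEHD1+Dox libraries, and that of RBL1 is 30.6% to 34.1% and 16.8% to 20.7%.

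The libraries within a group also showed how the genes moved together. Centred on its mean over the 6 libraries, the log2 CPM of E2F1 was 0.90 in shNTC+Dox replicate 3 and 0.43 and 0.28 in replicates 1 and 2, and those of E2F2 and E2F7 were 0.92 and 0.67 in replicate 3. In shEHD1+Dox replicate 2, E2F1 was at -0.30, E2F2 at -0.18, E2F7 at -0.06 and RBL1 at -0.01, against -0.66, -0.79, -0.63 and -0.48 in replicate 1. EHD1 had 7.55, 7.15 and 9.37 CPM in shEHD1+Dox replicates 1, 2 and 3. Whether the extent of the knockdown bears on the spread between these libraries was not tested.

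A search over 13161 genes, those with a symbol and a mean level of 1 CPM or more, was made for like patterns. The gene whose centred log2 CPM lay nearest to that of E2F1 over the 6 libraries was PCNA, the sliding clamp of DNA polymerase, with a root mean square difference of 0.063 on the log2 scale. E2F2 came next at 0.076, followed by NETO2 at 0.085, GPR75 at 0.092 and ATF5 at 0.094. Those nearest to RB1 were PRKD2 at 0.023, GOSR1 at 0.028, CCDC6 at 0.030, POLR3A at 0.035 and EFCAB14 at 0.035. No cell cycle gene of the lists below was among these 5, and a smaller difference is easier to reach for a gene that varies as little as RB1 does.

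**Figure D4:**
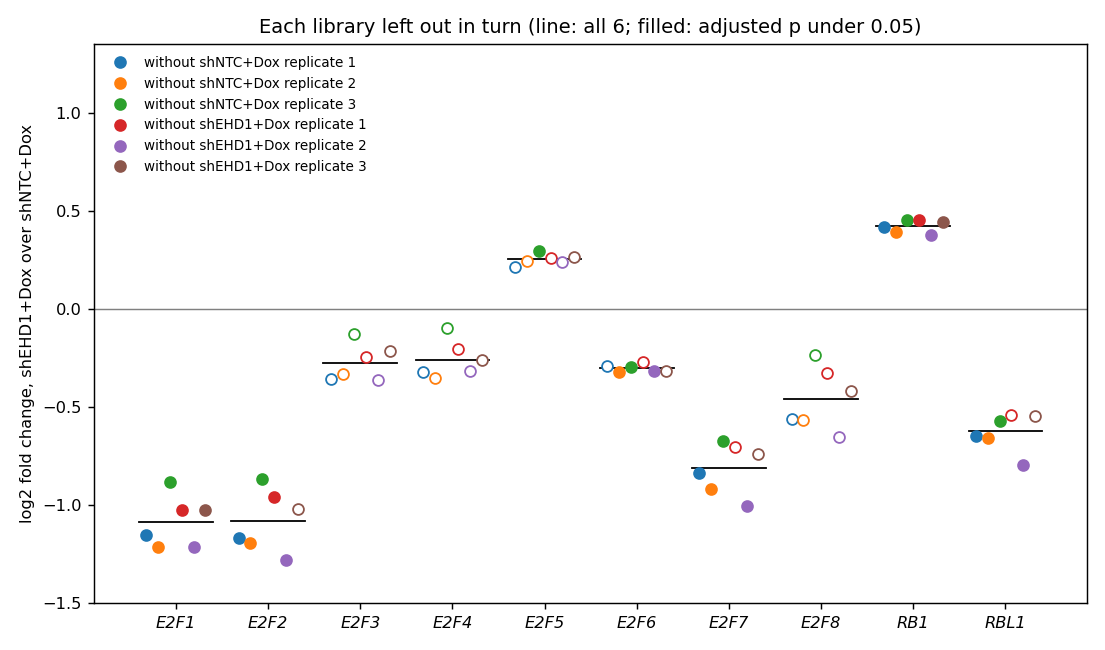
Log2 fold change of each of the 10 genes (y axis, shEHD1+Dox over shNTC+Dox, edgeR) with all 6 libraries (black line) and with each library left out in turn (points, coloured by the library left out, filled at an adjusted p under 0.05). Each gene keeps its direction in all 6 fits, E2F1 and RB1 pass in all 6, and E2F3, E2F4 and E2F8 pass in none.

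Of the 3 genes for DP partners, 0 passed with edgeR, where 8.75% of all genes tested were lower and 8.59% higher. For so short a list, 0 is near those shares. TFDP1, which encodes the DP subunit that typical E2F factors need to bind DNA, had 128, 123 and 153 CPM in the control libraries and 93.3, 120 and 100 CPM in the knockdown libraries. Its groups did not overlap, and its log2FC was -0.37 (SE 0.11, edgeR adjusted p = 0.0557). TFDP1 was the 1 partner with an unadjusted edgeR p under 0.05. Many of all genes pass that threshold, since E2F3, at an unadjusted edgeR p of 0.0572, ranked 5675 by p-value among 16785 genes. In this list, 1 gene passed as lower by the Wald test of DESeq2, with a filter of 10 counts in all 6 libraries, and without shEHD1+Dox replicate 2. TFDP2 and TFDP3 had log2FCs of -0.06 and -0.20 (edgeR adjusted p = 0.681 and 0.675). The MuvB complex joins pocket proteins in the repressive DREAM complex and MYBL2 or FOXM1 later in the cycle. Of 9 genes for this complex and for factors that act with it, 0 passed with edgeR and with DESeq2. This, too, is near the shares of 8.75% lower and 8.59% higher with edgeR, and is not evidence that these genes were spared. Of the 9, 1, the partner MYBL2, had an unadjusted edgeR p under 0.05. Without shNTC+Dox replicate 3, 1 of the 9 rose, where 1882 of 16560 genes tested were higher. Of 10 partners of E2F6, 1 fell, MAX, at a log2FC of -0.72 (SE 0.08, edgeR adjusted p = 0.00109), and 0 rose. Over all genes tested, 8.75% were lower by edgeR, a share near that of this list. By the Wald test of DESeq2 3 fell and 0 rose, where 1863 of all 16785 genes were lower and 1759 higher. At an unadjusted edgeR p under 0.05, which many of all genes pass, 3 were lower and 1 higher. Without shNTC+Dox replicate 2 the number lower was 2, against 1053 of 16451 genes tested. MAX is better known as the partner of MYC.

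A list of 9 genes held the cyclins and kinases that act on pocket proteins, and a phosphatase that acts on the kinases. Of these 9, 8 were tested, all 8 had a negative log2FC, and 5 passed as lower, against 8.75% of all genes tested. They were CDK2, the kinase of the G1/S transition, at -0.63 (edgeR adjusted p = 0.00345), CCND3, cyclin D3, at -0.61 (edgeR adjusted p = 0.00452), and CDC25A, the phosphatase that activates CDK2, at -0.93 (edgeR adjusted p = 0.0107). The remaining ones, CCNE2 at -1.30 and CDK6 at -1.45, had edgeR adjusted p-values of 0.0307 and 0.0486. CDK6 had low counts, from 34 to 62 in the control libraries and from 12 to 26 in the knockdown libraries (SE 0.43). CCND1 and CDK4 had the highest levels of the list, with control means of 1381 and 277 CPM. Their log2FCs of -0.22 and -0.21 did not pass (edgeR adjusted p = 0.117 and 0.0796). CCND2 had no count in any library. CCNE2, CDC25A and CCND3 had 40.6%, 52.5% and 65.8% of their control level left. The median of the 8 was -0.62. By the Wald test of DESeq2, which called 1863 of all 16785 genes lower, the count was 7. It fell to 3 with no filter on low counts, under the replicate block, and without shNTC+Dox replicate 1, shEHD1+Dox replicate 1 or shEHD1+Dox replicate 3. Of 7 CDK inhibitors, 5 were tested, and 1 rose and 1 fell with edgeR, against 8.59% higher and 8.75% lower among all genes tested. CDKN1B, which encodes p27, rose by 0.33 on the log2 scale (edgeR adjusted p = 0.0116) and CDKN2C, which encodes p18, fell to a log2FC of -0.49 (edgeR adjusted p = 0.0136). The call for CDKN1B was lost without shNTC+Dox replicate 1 or shEHD1+Dox replicate 1, and that for CDKN2C without shEHD1+Dox replicate 2 or shEHD1+Dox replicate 3. CDKN1A, which encodes p21, had 15.8, 13.3 and 9.0 CPM in the control libraries and 15.8, 21.0 and 18.9 CPM in the knockdown libraries, a log2FC of 0.54 that did not pass (edgeR adjusted p = 0.0999). Its unadjusted edgeR p was 0.0254. By the Wald test of DESeq2, and at an unadjusted edgeR p under 0.05, 2 of the 5 inhibitors were higher and 1 lower. Both thresholds pass more of all genes, with 1759 higher and 1863 lower of 16785 by the Wald test. CDKN2A and CDKN2B had at most 5 and 12 counts. Among 5 genes for the turnover of E2F factors and their regulators, SKP2 fell (-0.33, edgeR adjusted p = 0.0379) and CDC20 rose (0.36, edgeR adjusted p = 0.0254). Over all genes tested, 8.75% were lower and 8.59% higher. Neither SKP2 nor CDC20 passed without shNTC+Dox replicate 1, shNTC+Dox replicate 2, shEHD1+Dox replicate 1 or shEHD1+Dox replicate 3. Among the genes named here and in the lists below, MAX, CDK2, CCND1, CDK4, CCNE2, CDKN2C, SKP2, NUSAP1 and TYMS share between 365 and 3133 exon bases with other genes, so some of their counts may come from those genes.

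**Figure D5:**
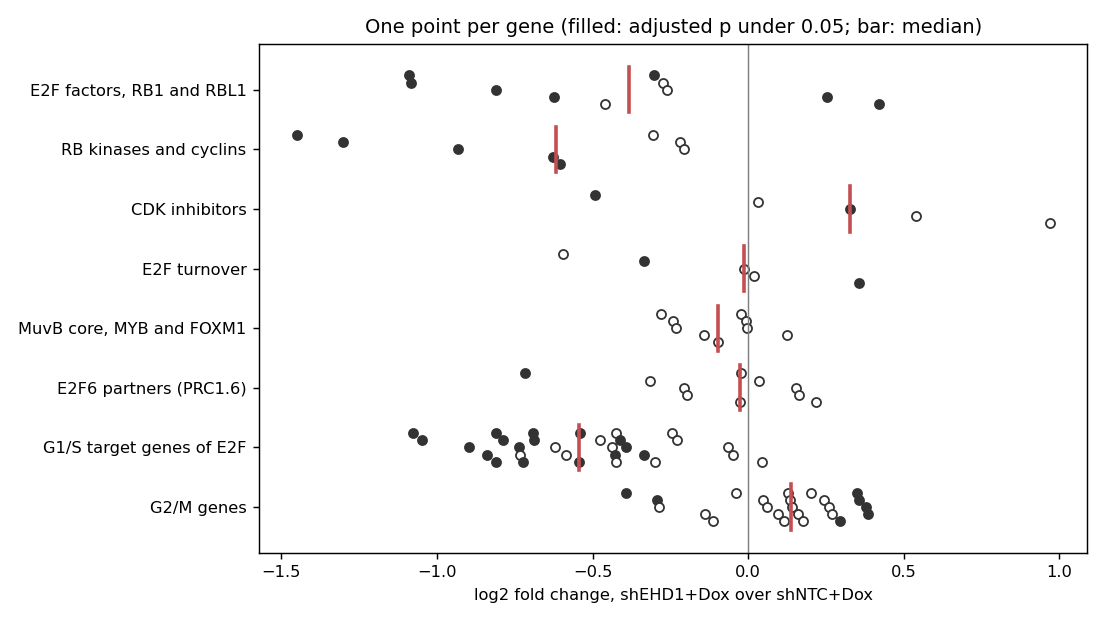
Log2 fold change (x axis, shEHD1+Dox over shNTC+Dox, edgeR) of every tested gene of 8 lists, filled at an adjusted p under 0.05, with a red bar at the median of the list. The medians of the 10 genes (-0.38), the RB kinases and cyclins (-0.62) and the G1/S target genes (-0.54) lie below 0, and that of the G2/M genes (0.14) lies above 0.

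Of 30 genes that E2F factors are known to switch on at the G1/S transition, 17 fell and 0 rose at an adjusted p under 0.05 with edgeR, against 8.75% lower and 8.59% higher among all genes tested. This list was chosen with earlier results of these data known, so the comparison is a description and not independent support. By the Wald test of DESeq2, 26 fell and 0 rose, and at an unadjusted p under 0.05 the edgeR counts were likewise 26 and 0. Both thresholds also pass more of all 16785 genes. The Wald test called 1863 lower and 1759 higher, against 1469 and 1441 with edgeR at the adjusted threshold. By unadjusted edgeR p, E2F3 ranked 5675 with a p of 0.0572. Their median log2FC was -0.54, and 29 of the 30 values were negative. PCNA fell at a log2FC of -1.05, MCM3, a subunit of the replicative helicase, at -0.79 and CDC45, which activates that helicase, at -0.69 (edgeR adjusted p = 0.00444, 0.00680 and 0.00778). POLA1, RRM1 and TYMS, named after their values were seen, were at 0.04, -0.05 and -0.06. The number lower was 11 without shNTC+Dox replicate 1 or shNTC+Dox replicate 3, 4 without shEHD1+Dox replicate 1 or shEHD1+Dox replicate 3, 20 without shEHD1+Dox replicate 2, 12 with no filter on low counts and 9 under the replicate block, with medians from -0.64 to -0.40.

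Of 24 genes of the G2 and M phases, many of which are held down by DREAM rather than switched on by E2F1, 5 rose and 2 fell, with a median log2FC of 0.14. Over all genes tested, 8.59% were higher and 8.75% lower at an adjusted p under 0.05, and the number lower here was near that share. BUB1, a kinase of the spindle checkpoint, rose by 0.35 (edgeR adjusted p = 0.0110), CCNB1, cyclin B1, by 0.38 (edgeR adjusted p = 0.0151), and CCNB2, MKI67 and BIRC5 by 0.38, 0.30 and 0.36 (edgeR adjusted p = 0.0209, 0.0248 and 0.0406). NUSAP1, a spindle protein, fell at -0.39 (edgeR adjusted p = 0.0130) and TOP2A, the topoisomerase that untangles chromosomes, at -0.29 (edgeR adjusted p = 0.0313). The number higher depended on the libraries. It was 0 without shEHD1+Dox replicate 1, 1 without shNTC+Dox replicate 1 or shNTC+Dox replicate 2, 2 without shEHD1+Dox replicate 3, 3 under the replicate block and 12 without shNTC+Dox replicate 3, and the number lower was 0 without shEHD1+Dox replicate 3, while the median stayed between 0.10 and 0.24 in these fits. The mean centred log2 CPM of the G1/S genes was 0.16, 0.11 and 0.54 in shNTC+Dox replicates 1, 2 and 3 and -0.43, -0.05 and -0.34 in shEHD1+Dox replicates 1, 2 and 3. That of the G2/M genes was -0.12, -0.12 and 0.08 in the control libraries and 0.11, 0.03 and 0.02 in the knockdown libraries. The G1/S genes were thus highest in shNTC+Dox replicate 3 and, among the knockdown libraries, in shEHD1+Dox replicate 2, as E2F1 and E2F2 were, whereas the G2/M genes overlapped between the groups.

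The E2F words searched above stood before the start of 15 of the 26 G1/S genes with a promoter entry (57.7%) and of 4 of the 19 G2/M genes with an entry (21.1%). The word TTTGAA is known as the CHR element through which MuvB complexes bind. It stood on either strand before the start of 10 of those 19 G2/M genes (52.6%) and of 1 of the 26 G1/S genes. Over all promoter windows, 13.3% held it and 10.9% held an E2F word. These are unlike measures, because a gene was counted if any of its windows held the word, whereas the shares over all promoters count single windows. Of the 8 genes with an entry among the 10 described here, E2F3 had this word.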

How the data were processed

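RNA-seq was carried out by the authors on TC71 cells with the TruSeq RNA Library Prep Kit v2, an unstranded kit, with paired-end reads. The paper names hisat2 with Ensembl annotations, hg38 and StringTie, whereas the submitters' processing notes name STAR 2.7.3a and DESeq2, with no role given, so the aligner behind the table is uncertain, and how reads that fit several genes were counted is not given in the sources used here. The authors deposited raw counts, whole numbers without normalization, for 60676 genes.

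After TMM normalization, genes reaching 10 counts in 3 or more of the 6 libraries, 16785 in all, were tested by the robust quasi-likelihood F test of edgeR (version 4.0.16 in R 4.3.3), with Benjamini-Hochberg adjustment. Standard errors were derived from the quasi-likelihood F. Groups came from the shRNA label, with no covariate. A call required an adjusted p under 0.05, with and without the fold of 2 that the study required. The typical variation between replicates was 15.0%. Pairs of libraries differed by a chi-square per degree of freedom of 5.64 to 27.9 within groups and 33.1 to 64.9 between groups. Log2 CPM used a prior count of 2. Gene coordinates, merged exons and exon overlaps came from GENCODE release 44 on GRCh38, where 99.5% of the gene identifiers were found. Intervals and counting errors cover no more than the named spread, since without molecular identifiers several reads may stem from 1 molecule.

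The members and gene lists were chosen with earlier results of these data known. The genes named were the 10 members, EHD1, RBL2, the DP partners, up to 3 genes of each list with the lowest adjusted p, and the 5 genes nearest to E2F1 and to RB1. The remaining names were added after their values were seen. Alternatives tried were the size factors of DESeq2, no filter, a filter of 10 counts in all 6 libraries, DESeq2 1.42.0 (Wald test), a replicate block, the omission of any 1 library, and, for levels per length, the longest transcript.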

Additional observations from a re-analysis of the deposited data

How the results depend on the processing

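The 10 genes kept the direction of their log2FC under the 11 alternatives. The size factors and the Wald test of DESeq2, the stricter filter of 10 counts in all 6 libraries and the absence of any filter each gave 5 genes lower, 2 higher and 2 past the 2-fold threshold, the same genes as in the report. The replicate numbers did not pair the libraries, since the correlation of the deviations of same-numbered libraries was 0.072, -0.059 and -0.045. Under the replicate block, 4 genes were lower and 1 was higher, because E2F6 (log2FC -0.30) and E2F5 (0.25) had edgeR adjusted p-values of 0.0643 and 0.0922. Leaving out each library in turn gave between 1 and 5 genes lower, between 1 and 2 higher and between 0 and 3 past the 2-fold threshold, while the number lower over all genes tested ran from 681 to 1734 and the number higher from 619 to 1882. Under the replicate block the numbers over all genes were 892 lower and 874 higher. The lower count was 2 without shEHD1+Dox replicate 1 (E2F1 and E2F2) and 1 without shEHD1+Dox replicate 3 (E2F1), and the 2-fold count was 0 without shNTC+Dox replicate 3. In that last fit E2F1 and E2F2 still passed, at log2FCs of -0.89 and -0.87 (edgeR adjusted p = 0.00107 and 0.0183). The causes of these shifts were not tested. With the length of the longest transcript in place of merged exons, the share of E2F1 to E2F3 was 45.2% in shNTC+Dox and 35.2% in shEHD1+Dox, and that of RBL1 among the pocket protein genes was 27.1% and 15.0%. With 3 libraries per group, changes of the size seen for E2F3, E2F4 and E2F8 lay within the error, which is not evidence that these genes did not change.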
